A study of Homo sapiens with 12 samples.

Results

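Collagens are the chains that assemble 3 at a time into the triple helices of the extracellular matrix. The chain genes were taken by symbol, as the protein-coding genes named COL, a type number, A and a chain number. The rule found 44 genes among the 60656 gene IDs of the count table. All 44 fell into the classes used here by the structure their proteins build: 11 fibrillar, 6 basement membrane network, 10 fibril-associated (FACIT), 5 beaded filament, 4 transmembrane, 3 short-chain network, 2 multiplexin, 1 anchoring fibril and 2 others.

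RNA was sequenced from A2058, A375 and SKMEL-5, established human cell lines that the labels describe as metastatic melanoma. Cells of each line were cultured at atmospheric oxygen (normoxia, taken as the reference) or at 1% oxygen (hypoxia), with no other agent or genetic change named in the labels and no exposure time given there. Each of the 6 groups had 2 libraries, biological duplicates by the design text, or 12 libraries in all. The series' title asks how hypoxia acts on the sugar-related genes of melanoma cells; which collagen chains the lines express is a further use of the same counts.

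The libraries held between 33831569 and 54202819 counts. A floor of 3 counts, which is what 0 counts would allow, lay between 0.0553 and 0.0887 CPM, each library's counts being scaled to its total, and covers counting error only. Over the 19636 tested genes, libraries of A375 and SKMEL-5 had Pearson correlations of log2 CPM of 0.912 to 0.990, close to the span between libraries of 1 line (0.917 to 0.982 in A375), and A2058 libraries correlated with those of A375 at 0.810 to 0.880. The melanocyte genes TYR and MLANA had 0 counts in each library of A375 or SKMEL-5, while SOX10, a melanocyte-lineage factor, was between 765 and 1684 CPM in all 12. Whether the libraries labelled A375 and SKMEL-5 come from separate lines was not tested; they are named by their labels, on which each statement about 3 lines rests. 1 hypoxic library of each line was set off from the rest: hypoxia 2 of A2058 and hypoxia 1 of both A375 and SKMEL-5 scored 72.7, 132 and 108 on the first principal component of the variance within lines (47.1% of it), and the 9 other libraries scored below 0. Results that rest on these 3 libraries are given with and without them.

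As background, a collagen helix needs 3 chains of matching types, so that a line's chain repertoire limits which collagens it can build. Type I is usually 2 parts COL1A1 and 1 part COL1A2, type IV of ordinary basement membranes pairs COL4A1 with COL4A2, and type VI combines COL6A1 and COL6A2 with a longer chain such as COL6A3. The chains are hydroxylated on proline and lysine in the endoplasmic reticulum by oxygen-dependent enzymes of the P4HA and PLOD families, and several of those enzyme genes are known targets of hypoxia-inducible factor (HIF). In melanoma, collagens come both from the tumour cells and from fibroblasts around them. The samples here were cultured lines.

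The sequences in front of 3 sets of chains are shown because the results below turn on these chains: the stretch between the head-to-head starts of COL4A1 and COL4A2, the most abundant pair, and the 250 bases before the starts of COL5A1 and COL8A2, the chains with the smallest p for hypoxia. They are RefSeq sequences on GRCh38.p14, written 5′ to 3′ on the strand named. Of the 44 chains, 32 had an entry in the RefSeq promoter table.
COL4A1-COL4A2 between the starts, chr13:110307158-110307283, + strand (the COL4A2 strand), 126 bases, with CCAAT in capitals: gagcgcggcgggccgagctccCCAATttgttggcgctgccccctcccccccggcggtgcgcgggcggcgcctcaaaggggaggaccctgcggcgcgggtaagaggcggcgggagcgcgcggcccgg
COL5A1, chr9:134641553-134641802, + strand, 250 bases, with CACGT in capitals, which reads ACGTG on the opposite strand: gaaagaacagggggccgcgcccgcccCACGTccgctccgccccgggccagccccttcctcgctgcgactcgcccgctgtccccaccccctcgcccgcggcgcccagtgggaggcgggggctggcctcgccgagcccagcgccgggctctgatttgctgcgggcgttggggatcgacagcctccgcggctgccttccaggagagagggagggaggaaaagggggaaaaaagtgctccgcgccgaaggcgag
COL8A2, chr1:36125223-36125472, − strand, 250 bases, with the 2 GCGTG in capitals: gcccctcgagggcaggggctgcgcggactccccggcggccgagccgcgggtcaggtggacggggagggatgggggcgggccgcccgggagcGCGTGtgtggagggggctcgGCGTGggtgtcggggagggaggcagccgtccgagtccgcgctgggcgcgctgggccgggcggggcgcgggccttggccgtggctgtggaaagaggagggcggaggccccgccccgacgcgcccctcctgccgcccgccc

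ACGTG and GCGTG are the core letters that HIF is known to bind. Both were searched on both strands; they differ in their first letter, so that no position of a strand holds both, and CACGTG holds ACGTG on both strands. ACGTG was in the 250 bases of 18.5% of the 35116 windows in the table, GCGTG in 32.2% and either in 43.2%. Among the 32 chains with an entry, 6 had ACGTG in any of their windows, 14 had GCGTG and 16 had either. Counted by gene in the same way, 21.7%, 36.2% and 47.4% of the 27305 genes in the table had them. The COL5A1 match lies 224 bases before the start, and the farther of the COL8A2 matches 159 bases before it. The stretch between COL4A1 and COL4A2 holds neither, has a GC content of 80.2% and holds CCAAT, which 21.1% of windows of that length hold on either strand. A match is only a match of letters.

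The melanoma lines shared most of the chains they made. A chain was counted as made where both libraries of at least 1 oxygen condition reached 1 CPM, scaled between libraries by TMM. By that rule A2058 made 28 chains, A375 made 22 and SKMEL-5 made 23. The 22 chains of A375 were made by all 3 lines: COL4A1, COL4A2 and COL4A5 of the basement membrane network, 7 fibrillar chains (COL1A1, COL5A1, COL5A2, COL5A3, COL11A2, COL24A1 and COL27A1), the beaded filament chains COL6A1, COL6A2 and COL6A3, 5 FACIT chains (COL9A2, COL9A3, COL12A1, COL16A1 and COL19A1), and COL7A1, COL8A1, COL13A1 and COL18A1. COL15A1, a multiplexin, was made by A2058 and SKMEL-5 under the rule. A375 missed the cut with 1.77 and 0.853 CPM in normoxia and 0.631 and 2.25 CPM in hypoxia. Its mean was no lower than that of SKMEL-5 (1.38 against 1.10 CPM). COL3A1, COL4A6, COL8A2, COL14A1 and COL25A1 were made by A2058 alone under this rule, which is a cut on levels and no test. Of these, COL25A1 met the rule in A2058 normoxia. COL3A1, COL4A6, COL8A2 and COL14A1 met it in A2058 hypoxia and not in normoxia. Their values in the other lines are given below.

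No line made the other 16 chains. COL10A1, COL23A1, COL6A5 and COL6A6 had at most 3 counts in each of the 12 libraries, and COL23A1 and COL6A5 had none. COL2A1, the fibrillar chain of cartilage, stayed between 0.0301 and 1.64 CPM. COL1A2, the usual partner of COL1A1, ran from 0 to 1.24 CPM. COL4A3 and COL4A4, the basement membrane pair of kidney and lung, reached at most 0.601 and 1.00 CPM. COL22A1, a FACIT chain of tissue junctions, had at most 2 counts in each A2058 library and 0.0898 to 4.47 CPM in the other lines, without both libraries of a condition reaching 1 CPM. The remaining 7 were COL9A1, COL11A1, COL17A1, COL20A1, COL21A1, COL26A1 and COL28A1, of which COL11A1 reached the highest level, 1.34 CPM in A375 hypoxia 2.

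**Figure D1:**
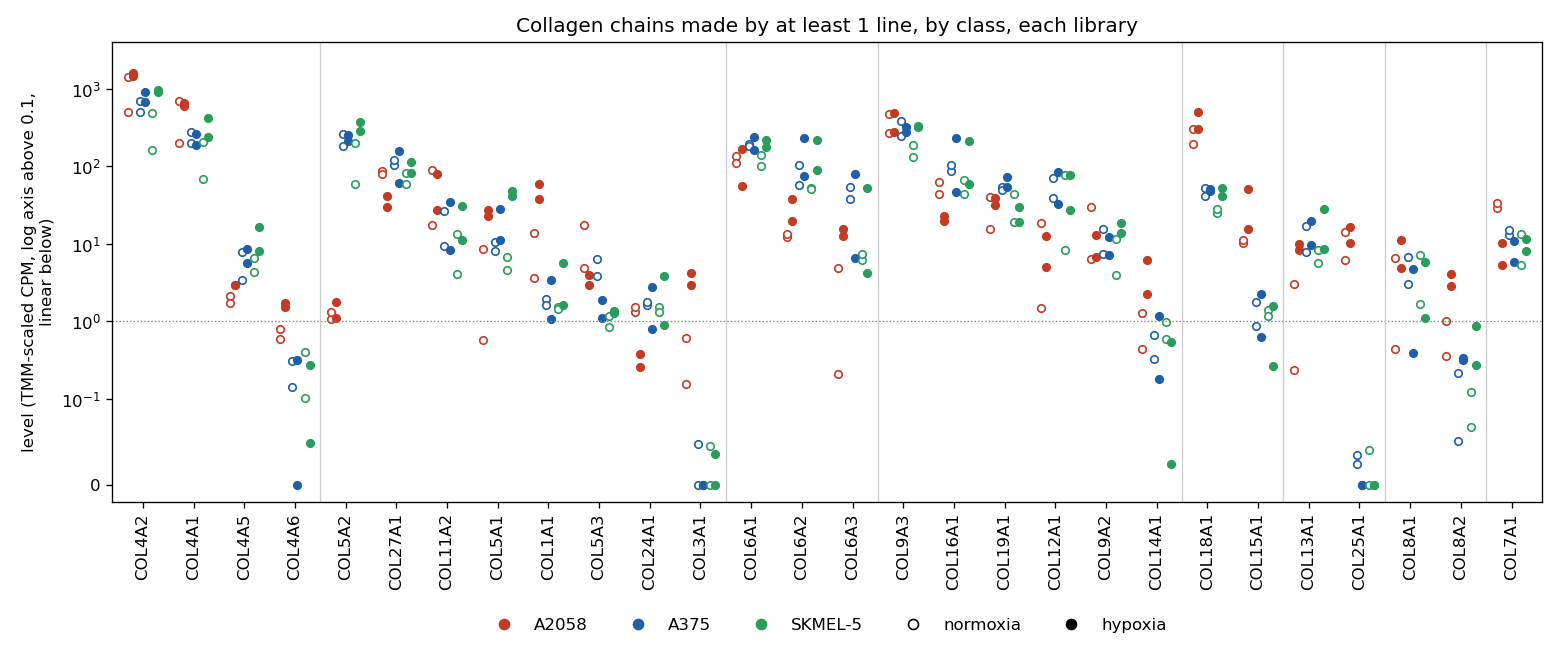
Level of the 28 collagen chains made by at least 1 line, in TMM-scaled CPM (log axis above 0.1, linear below), 1 point per library, with lines by colour, normoxia open and hypoxia filled, and the dotted line at 1 CPM. Grey lines part the classes, from the left basement membrane network, fibrillar, beaded filament, FACIT, multiplexin, transmembrane, short-chain network and anchoring fibril; COL4A2 is highest in all 3 lines, and COL5A2, COL25A1 and COL3A1 have A2058 far from the other lines.

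Together the 44 chains took 0.0987% to 0.340% of all counts of a library. The basement membrane network held 26.3% to 69.2% of the collagen CPM and the FACIT chains 12% to 33.0%, against 4.08% to 18.5% for the fibrillar chains. The summed collagen level was lowest in SKMEL-5 normoxia 1, at 916 CPM, and highest in A2058 hypoxia 2, at 3829 CPM. In SKMEL-5 the sum was 916 and 1530 CPM in normoxia and 2832 and 2767 CPM in hypoxia. In A375 it was 2079 and 2231 CPM in normoxia and 2765 and 2185 CPM in hypoxia, and in A2058 1869 and 3170 against 3098 and 3829 CPM. These sums are TMM-scaled, and hypoxic and normoxic sums overlapped in A375 and in A2058 and did not overlap in SKMEL-5. As a share of all counts the order changed in A375, at 0.242% and 0.233% in normoxia and 0.218% and 0.220% in hypoxia. The highest share, 0.340%, was that of A2058 normoxia 2. No test was made on the sum or on the share.

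COL4A2 had the highest CPM of all chains in each line. In A2058 it was at 497 and 1431 CPM in normoxia and 1489 and 1628 CPM in hypoxia. A375 had 510 and 696 CPM in normoxia and 913 and 677 CPM in hypoxia, and SKMEL-5 165 and 486 against 961 and 910 CPM. In A2058 the 2 normoxic libraries differed more than the means of the conditions did (964 and 1558 CPM). In SKMEL-5 the normoxic libraries differed about as much as the means (325 and 936 CPM) as a ratio, and by less in CPM. COL4A1 followed the same order within normoxia, at 200 and 705 CPM in A2058, 201 and 281 CPM in A375, and 69.0 and 208 CPM in SKMEL-5. In hypoxia COL4A1 was at 650 and 604, 189 and 264, and 239 and 424 CPM in those lines.

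Levels of different genes were compared per kb of annotated exon, since long genes collect more counts. On that scale COL4A2 exceeded COL4A1 in every library, by 1.55 to 2.06 times in 10 of them. The exceptions were A375 hypoxia 1 and SKMEL-5 hypoxia 1, at 3.69 and 3.07 times, 2 of the libraries that stood apart; A2058 hypoxia 2, the other, was at 2.06 times. With the length of the principal transcript in place of the exon union, the median ratio over libraries was 2.53.

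COL9A3, a chain of the type IX collagen best known from cartilage, was highest of all chains per kb in each line, at 78.7, 64.1 and 50.5 CPM per kb in A2058, A375 and SKMEL-5. Per kb of the principal transcript COL4A2 was ahead of it in A2058 (194 against 153 CPM per kb). In CPM, COL9A3 was at 479, 273, 282 and 491 in A2058 (normoxia 1 and 2, then hypoxia 1 and 2), at 389, 245, 324 and 282 in A375, and at 191, 133, 329 and 325 in SKMEL-5. Its helix partner COL9A1 was at 0 to 0.0954 CPM in the same libraries, and COL9A2, the remaining partner, was 14.0 to 62.5 times lower than COL9A3 per kb. COL9A3 shares 45 exon bases with TCFL5 on the opposite strand (162638 and 18878 counts over all libraries), and the counting's use of strand is not given in the sources used here.

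The beaded filament chains were unequal too. COL6A1 was at 136 and 112 CPM in A2058 normoxia and 55.1 and 168 CPM in A2058 hypoxia, at 197, 182, 241 and 164 CPM in A375 in the same order, and at 102, 141, 221 and 177 CPM in SKMEL-5. Per kb it exceeded COL6A2 by 2.84 to 11.2 times in the A2058 libraries, by 1.03 to 3.19 times in those of A375 and by 1.03 to 2.82 times in those of SKMEL-5. COL6A3, the long chain of the trimer, was lower still and moved between libraries of 1 group: it was at 6.58 and 79.9 CPM in the 2 hypoxic libraries of A375 and at 4.15 and 52.4 CPM in those of SKMEL-5. The lower value in each pair is the library that stood apart.

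COL1A1 and COL1A2 did not keep the usual proportion. In A2058 COL1A1 was at 3.56 and 13.8 CPM in normoxia and 37.4 and 58.6 CPM in hypoxia. It exceeded COL1A2 there by 53.9 to 158 times per kb, and by 38.2 to 112 times per kb of the principal transcript. These ratios rest on 1 to 43 counts of COL1A2 in a library. In A375 and SKMEL-5 COL1A1 was at 1.07 to 5.72 CPM. Where those libraries had COL1A2 counts, at most 13, COL1A1 exceeded it by 6.12 to 65.9 times per kb. COL1A2 summed to 66 counts over the 4 A2058 libraries and 23 over the 8 others.

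The clearest result on the chains was the difference of A2058 from the other lines. A2058 was compared with the mean of A375 and SKMEL-5 over both oxygen conditions, by edgeR's quasi-likelihood test on 36 of the 44 chains; COL6A5, COL6A6, COL9A1, COL10A1, COL20A1, COL23A1, COL26A1 and COL28A1 had too few counts to be tested. At an adjusted p (Benjamini-Hochberg) under 0.05, 12 chains were higher in A2058, where 17.2% of the 19636 tested genes were, and 11 were lower, where 16.5% of tested genes were. In either direction 33.7% of tested genes differed. COL1A2, COL3A1 and COL25A1 passed the low-count filter through A2058 alone, and COL4A3, COL11A1, COL17A1 and COL22A1 through the other lines alone. These 7 entered the test only through the side where they were high, so their p-values are not given, and 16 calls are on chains that reached the filter's level on both sides, 9 higher and 7 lower. The shares above cover all tested genes, whichever side they passed the filter through. No share limited to genes at that level on both sides was computed for the 16 calls. Between A375 and SKMEL-5 edgeR called 0 of 36 chains, against 0.0102% of all genes, with 2 chains and 1.78% of genes at an unadjusted p under 0.05.

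**Figure D2:**
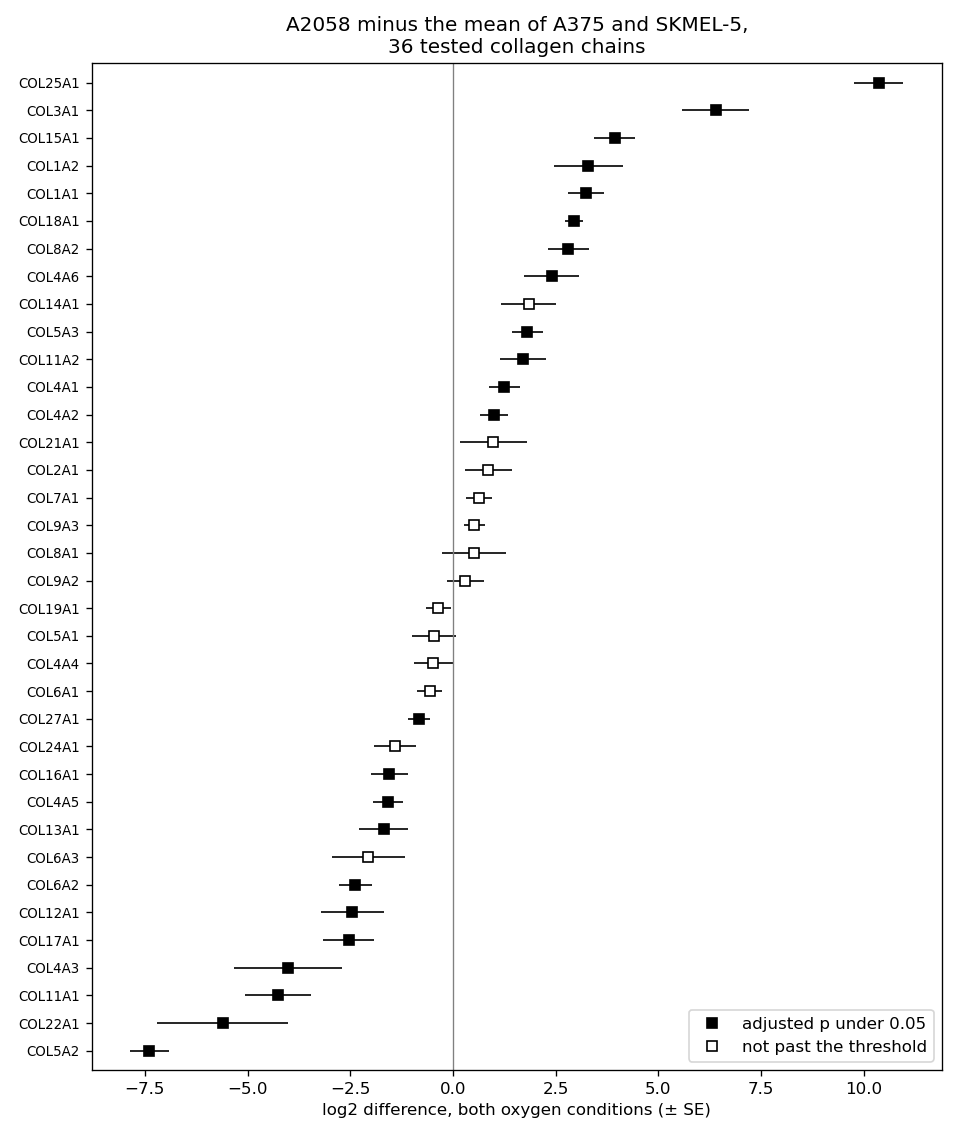
Log2 difference of A2058 from the mean of A375 and SKMEL-5 over both oxygen conditions, with its standard error, for the 36 tested collagen chains; filled squares have an adjusted p under 0.05 in edgeR's test. 12 filled squares lie right of 0 and 11 left of it, from COL25A1 to COL5A2. COL1A2, COL3A1, COL25A1, COL4A3, COL11A1, COL17A1 and COL22A1 passed the low-count filter only through the side where they were high. The fitted values of COL25A1, COL3A1, COL11A1, COL22A1 and COL4A3 rest on at most 6 counts in the lower lines and depend on the model's prior count.

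COL5A2 was the chain most reduced in A2058 among those with counts in every line. It was at 1.08 and 1.29 CPM in A2058 normoxia and 1.09 and 1.75 CPM in A2058 hypoxia. In A375 it was at 186, 261, 213 and 258 CPM, and in SKMEL-5 at 58.8, 203, 284 and 371 CPM, so that no library of either line came near those of A2058. COL5A2 forms type V collagen with COL5A1. The difference was −7.39 ± 0.47 on the log2 scale (SE; adjusted p = 1.27e-06 in edgeR's test), a level 168-fold lower. COL5A1 itself did not differ past the threshold (log2 difference −0.46 ± 0.53, adjusted p = 0.54), and the proportion of the 2 chains was another one. Per kb, COL5A2 exceeded COL5A1 by 8.88 to 44.7 times in the A375 and SKMEL-5 libraries. In A2058 it was at 2.87 times COL5A1 in normoxia 1 and at 0.0723 to 0.228 times in the other 3 libraries.

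COL3A1, the fibrillar chain of skin and vessel walls, lies beside COL5A2 on chromosome 2 (COL3A1 at 188974320 to 189012746 on the + strand, COL5A2 at 189031896 to 189225312 on the − strand, GENCODE 29 on GRCh38), with 19149 bases between the genes. Its pattern was the opposite one. It had 313 counts over the 4 A2058 libraries (0.154 to 4.23 CPM) and 6 counts over the 8 others, a ratio of 123 after scaling (95% exact counting interval 55.7 to 337).

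COL25A1 separated the lines most. This transmembrane collagen, known from neurons and motor nerve outgrowth, was at 6.23 and 14.2 CPM in A2058 normoxia and 10.4 and 16.3 CPM in A2058 hypoxia, 1817 counts in all. The 8 other libraries held 5 counts together, and 5 of them held none. The scaled ratio was 854 (365 to 2633).

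Other chains were higher in A2058 at levels well above the floor. COL18A1, a multiplexin of basement membranes and the precursor of endostatin, was at 195, 305, 306 and 503 CPM in A2058 (normoxia, then hypoxia), 41.1 to 53.0 CPM in A375 and 25.2 to 52.6 CPM in SKMEL-5. The difference was 2.94 ± 0.22 on the log2 scale (SE; adjusted p = 3.0e-06). COL15A1, the other multiplexin, was at 10.1 to 50.7 CPM in A2058 against 0.262 to 2.25 CPM elsewhere (3.94 ± 0.50, adjusted p = 0.000133). The lowest A2058 library stood above the highest of the other 8 for both multiplexins and COL4A6. COL3A1 and COL25A1 did so too, but they passed the low-count filter through A2058 alone. With them this is 5 chains, where 10.6% of tested genes did so, a share not limited to genes at the filter's level on both sides.

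COL1A1 was at 28.4 ± 24.7 CPM (SD, n = 4) in A2058, while A375 had 2.01 ± 0.98 and SKMEL-5 had 2.58 ± 2.10 CPM, a difference of 3.24 ± 0.44 (log2 ± SE, adjusted p = 0.000227). COL1A2 had the same direction in counts pooled over both oxygen conditions, with a counting ratio of 6.74 (4.14 to 11.4). That ratio rests on the hypoxic libraries of A2058, where hypoxia 1 held 17 counts and hypoxia 2 held 43. A2058 normoxia 1 held 1 count and normoxia 2 held 5. Among normoxic libraries the lines overlapped: 0.0256 and 0.138 CPM for A2058, 0.0338 and 0.0947 CPM for A375, 0.0672 and 0.263 CPM for SKMEL-5. COL8A2, a short-chain collagen of corneal and vascular membranes, was at 0.358 to 4.08 CPM in A2058 and 0.0506 to 0.859 CPM in the others (2.80 ± 0.50, adjusted p = 0.00124). COL5A3, the third type V chain, differed by 1.81 ± 0.37, and COL11A2, a fibrillar chain of cartilage type, by 1.71 ± 0.56. COL4A1 and COL4A2 were higher by 1.25 ± 0.37 and 0.99 ± 0.34 with adjusted p-values of 0.0227 and 0.0445, and their libraries overlapped between lines.

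Of the chains lower in A2058, COL4A5, COL5A2 and COL6A2 had every A2058 library below every other library. COL11A1, COL17A1 and COL22A1 did so too, but they passed the low-count filter through the other lines alone. With them this is 6 chains, where 11.9% of tested genes did so, a share not limited to genes at the filter's level on both sides. COL6A2 was at 12.2, 13.3, 19.6 and 38.1 CPM in A2058 and at 50.4 to 236 CPM elsewhere (−2.38 ± 0.40, adjusted p = 0.000901). COL11A1, a minor fibrillar chain that partners with type V chains, had 6 counts in A2058 and 294 in the others, a ratio of 20.9 (9.47 to 57.3). COL22A1 had 4 against 595 counts, a ratio of 63.3 (24.6 to 233), and COL17A1, the hemidesmosome collagen of keratinocytes, 11 against 162, a ratio of 6.27 (3.41 to 12.8). COL4A3 had 1 count in A2058 and 62 in the others; its ratio of 26.4 has an interval of 4.56 to 1059, and an antisense gene, AC097662.1, shares 120 of its exon bases and holds 365 counts.

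COL4A5 and COL4A6 lie head to head on chromosome X, with starts 347 bases apart, and differed between the lines in opposite directions. COL4A5 was at 1.73 to 2.96 CPM in A2058 and 3.39 to 16.3 CPM elsewhere (−1.58 ± 0.36, adjusted p = 0.00575). COL4A6 was at 0.590, 0.798, 1.52 and 1.72 CPM in A2058 and at 0 to 0.403 CPM elsewhere (2.41 ± 0.67, adjusted p = 0.0167). COL14A1, a FACIT chain, did not pass: it was at 0.436 to 6.09 CPM in A2058 and 0.0238 to 1.16 CPM elsewhere (1.84 ± 0.66, adjusted p = 0.0524). COL12A1, COL13A1, COL16A1 and COL27A1 completed the lower set, with log2 differences of −2.45 ± 0.77, −1.68 ± 0.60, −1.56 ± 0.45 and −0.82 ± 0.27.

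Of the 16 calls on chains that reached the filter's level on both sides, 9 kept an adjusted p under 0.05 and their direction in every alternative run that gave a value: COL1A1, COL4A5, COL4A6, COL5A2, COL5A3, COL6A2, COL8A2, COL15A1 and COL18A1. The other counts here are over all 23 calls, including the 7 on chains that passed the filter through 1 side. Without the 3 libraries that stood apart, 9 were called higher (15.4% of genes) and 6 lower (13%). Calls in both directions were also lost with single libraries of A2058, A375 or SKMEL-5 left out.

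Markers of fibroblasts were read in the same libraries, since collagens I and III are typical of those cells. The summed level of 10 fibroblast genes that are not collagens was 22.1 to 83.6 CPM in A2058, 15.1 to 20.3 CPM in A375 and 12.2 to 22.1 CPM in SKMEL-5. Of the 10 genes, LUM, THY1 and FAP were higher in each A2058 library than in the 8 others (10.6% of tested genes were). PDGFRB was lower in each (11.9% of tested genes were). Only 7 of the 10 had enough counts to be tested, and THY1 was at 0.282 to 1.45 CPM in A2058. LUM, a matrix proteoglycan, was at 11 to 35.0 CPM in A2058 and 0.625 to 3.25 CPM elsewhere, and PDGFRB, a growth factor receptor, at 0.692 to 2.24 against 5.47 to 12.6 CPM. In A2058 the sum was 27.0 and 22.1 CPM in normoxia and 53.5 and 83.6 CPM in hypoxia, beside COL1A1 and COL3A1 in the same libraries. FAP, a surface protease of activated fibroblasts, was at 4.77 and 7.43 CPM in A2058 normoxia and 23.8 and 31.4 CPM in A2058 hypoxia, while DPT had 0 counts and MFAP5 at most 2 in every library. The part of such cells or of these genes in the A2058 levels was not tested. In bulk RNA, fewer cells that express a chain and less RNA per cell cannot be told apart.

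The response to hypoxia was tested next, as the mean over the 3 lines of hypoxia minus normoxia. The fibrillar chain COL5A1 had the smallest p, with a level in hypoxia 4.54-fold that in normoxia, and COL8A2, COL6A2, COL1A1, COL13A1 and COL4A2 were also at higher levels on average, while COL7A1 and COL5A3 were at lower ones. None of them passed. edgeR called 0 of 36 chains higher, where 0.978% of tested genes were called, and 0 lower, where 0.143% were (1.12% either way). At an unadjusted p under 0.05 there were 12 chains, 9 of them with a positive mean, where 19.0% of tested genes had such a p. DESeq2 called 4 chains higher (COL1A1, COL5A1, COL6A2 and COL8A2) where it called 5.65% of genes, and limma-voom called COL5A1 where it called 0.779%. With no low-count filter edgeR called 7 chains higher, where 3.65% of genes were.

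**Figure D3:**
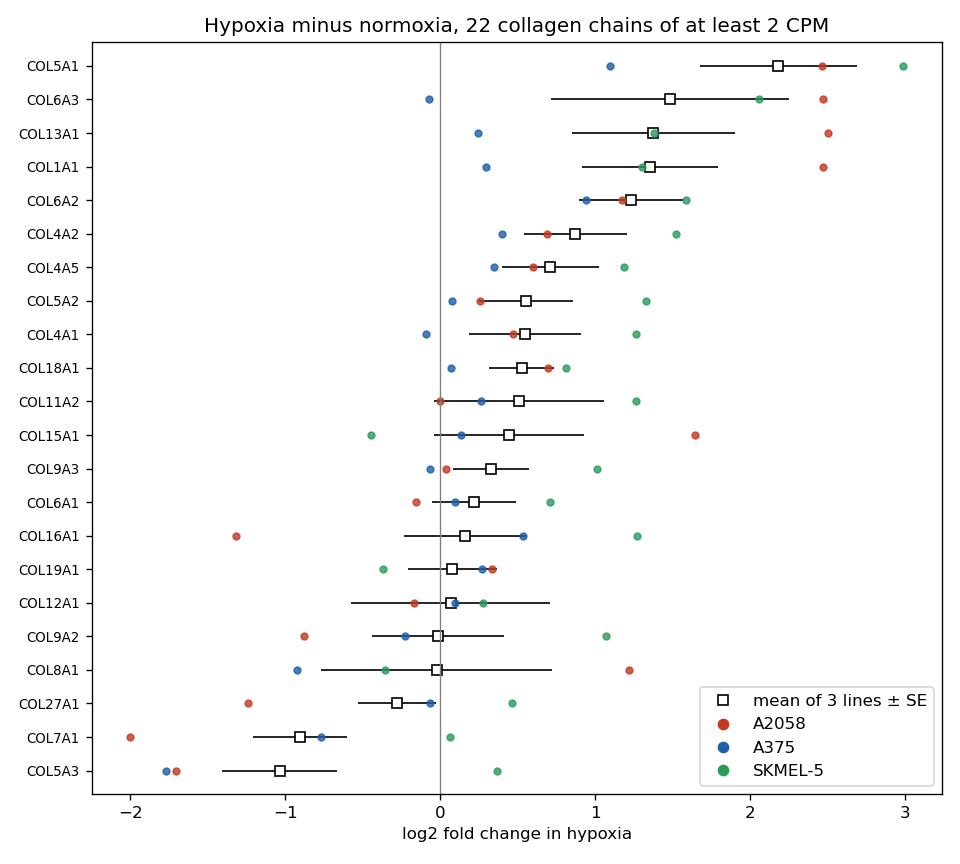
Log2 fold change in hypoxia of the 22 collagen chains that average at least 2 CPM and have counts in each line: the mean of the 3 lines with its standard error (open squares) and each line (coloured points). COL5A1 is farthest right at 2.18 ± 0.51 and COL5A3 farthest left at −1.03 ± 0.37; no chain has an adjusted p under 0.05, and the lines often differ in sign.

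COL5A1, which nucleates type I fibrils, was at 0.564 and 8.54 CPM in A2058 normoxia and 22.7 and 27.4 CPM in A2058 hypoxia. In A375 it was at 8.02 and 10.5 against 28.4 and 11.3 CPM, and in SKMEL-5 at 4.52 and 6.8 against 48.1 and 42.0 CPM. Both hypoxic libraries lay above both normoxic ones in each line, by little in A375 hypoxia 2. The mean change was 2.18 ± 0.51 on the log2 scale (SE; adjusted p = 0.069 in edgeR's test). It was called without A2058 normoxia 1, without A2058 normoxia 2 and without A375 hypoxia 2, with adjusted p-values of 0.0373, 0.00757 and 0.029, and was 1.80 with an adjusted p of 0.385 without the 3 libraries that stood apart.

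COL8A2 had a similar pattern at a much lower level. It was at 1.00 and 0.358 CPM in A2058 normoxia and 2.84 and 4.08 CPM in A2058 hypoxia. In A375 it was at 0.0506 and 0.213 against 0.331 and 0.318 CPM, and in SKMEL-5 at 0.0672 and 0.121 against 0.859 and 0.269 CPM, which are 3 to 36 counts in the libraries of A375 and SKMEL-5. The mean change was 2.06 ± 0.51 (log2 ± SE, adjusted p = 0.0811), and 1.60 without the 3 libraries that stood apart.

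COL6A2 was at 12.2 and 13.3 CPM in A2058 normoxia against 19.6 and 38.1 CPM in hypoxia. In A375 the values were 105 and 57.5 against 236 and 75.8 CPM, which overlap, and in SKMEL-5 52.1 and 50.4 against 217 and 91.1 CPM. In each line the higher hypoxic value is that of the library that stood apart. The mean change was 1.23 ± 0.34 (adjusted p = 0.105); it was 0.43 without those 3 libraries, and it was called without A375 hypoxia 2 (1.43, adjusted p = 0.0266).

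COL1A1 reached 2.47 ± 0.78 on the log2 scale in A2058 (adjusted p = 0.35), 0.30 ± 0.76 in A375 and 1.30 ± 0.76 in SKMEL-5. The SKMEL-5 value came from 1 library, at 5.72 CPM, with the other hypoxic one at 1.62 CPM beside 1.55 and 1.42 CPM in normoxia. The mean was 1.36 ± 0.44 (adjusted p = 0.149), and 0.47 without the 3 libraries that stood apart. COL13A1, a transmembrane collagen of cell contacts, had a mean of 1.38 ± 0.53 (adjusted p = 0.201) and was at 0.231 and 3.0 CPM in A2058 normoxia against 8.40 and 9.92 CPM in hypoxia. That mean was 1.02 without SKMEL-5 hypoxia 2 and 2.31 without A2058 normoxia 2.

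**Figure D4:**
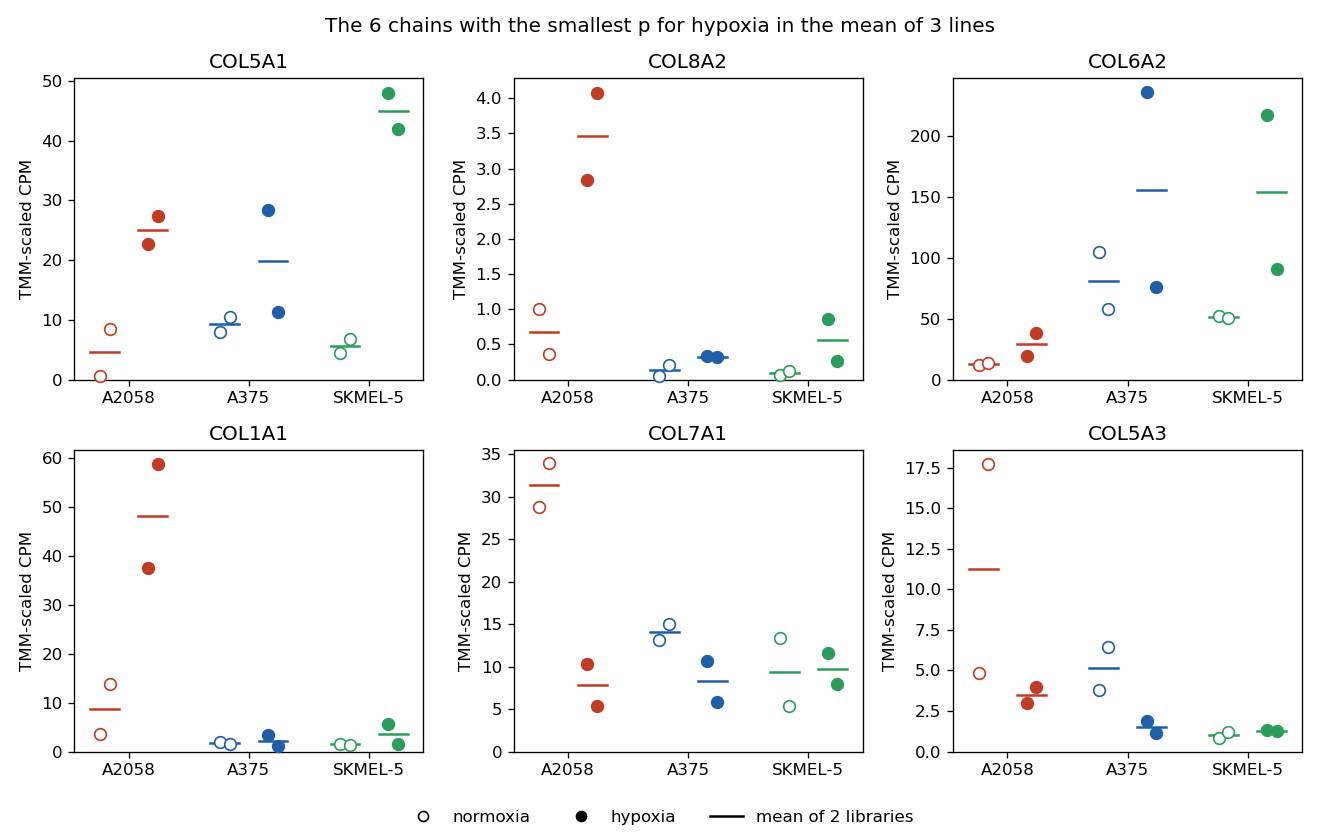
TMM-scaled CPM of the 6 collagen chains with the smallest p for hypoxia in the mean of the 3 lines, 1 point per library, normoxia open and hypoxia filled, with a bar at the mean of 2 libraries; axes start at 0 and differ between panels. COL5A1 and COL8A2 have both hypoxic points above both normoxic ones in each line, COL7A1 and COL5A3 are lower in hypoxia in A2058 and A375 and not in SKMEL-5.

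COL7A1, the chain of the anchoring fibrils below epithelia, was at 28.7 and 34.0 CPM in A2058 normoxia and 10.3 and 5.37 CPM in A2058 hypoxia. In A375 it was at 13.1 and 15 against 10.7 and 5.82 CPM, and in SKMEL-5 at 13.4 and 5.32 against 11.5 and 7.99 CPM. The groups did not overlap in A2058 and A375 and overlapped in SKMEL-5. The mean change was −0.90 ± 0.30 (log2 ± SE, adjusted p = 0.162).

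COL5A3 was at 4.82 and 17.7 CPM in A2058 normoxia against 2.97 and 3.97 CPM in hypoxia, and at 3.81 and 6.44 against 1.89 and 1.11 CPM in A375. In SKMEL-5 it was at 0.829 and 1.17 against 1.34 and 1.26 CPM, the opposite order. The mean change was −1.03 ± 0.37 (adjusted p = 0.181).

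The basement membrane chains had small positive means. COL4A2 had 0.87 ± 0.33 (adjusted p = 0.201), COL4A1 0.55 ± 0.36 (adjusted p = 0.421) and COL4A5 0.71 ± 0.31 (adjusted p = 0.253). COL4A4 was below 1.01 CPM in each library, and its hypoxic libraries lay above its normoxic ones in each line. COL18A1 had 0.53 ± 0.21 (adjusted p = 0.217). In A375 the values of COL4A1, COL4A2 and COL18A1 were −0.09, 0.40 and 0.07, and in SKMEL-5 1.26, 1.52 and 0.81.

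The remaining chains at 2 CPM or more did not pass either. COL6A3 had a mean of 1.48 ± 0.77, which ran from 0.56 without SKMEL-5 hypoxia 2 to 2.69 without A2058 normoxia 2. COL5A2 had 0.55 ± 0.30, COL11A2 0.51 ± 0.55, COL15A1 0.44 ± 0.48, COL9A3 0.33 ± 0.25 and COL6A1 0.22 ± 0.27. COL16A1, COL19A1, COL12A1, COL9A2, COL8A1 and COL27A1 lay between 0.16 and −0.28. For COL12A1 and COL8A1 the standard errors were 0.64 and 0.75, so that changes of 2-fold in either direction lie within 2 standard errors of the estimates. COL25A1 has a value in A2058 alone, 0.38 ± 0.67, since the other lines had at most 2 counts of it in a library.

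Counted over all 36 tested chains, 24 had a mean above 0 and 12 below, with a median of 0.19, against 51.0% of tested genes above 0 and a median of 0.02 over all genes. Both hypoxic libraries exceeded both normoxic ones in every line for 3 chains, COL4A4, COL5A1 and COL8A2, where 4.86% of tested genes did so. The reverse held for 0 chains and 2.79% of genes.

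Within single lines edgeR called 0 chains, against 0.0102% of genes in A2058 and none in A375 or SKMEL-5. At an unadjusted p under 0.05 A2058 had 10 chains (9.16% of tested genes), A375 had 3 (5.6%) and SKMEL-5 had 9 (6.53%). The A2058 median over the chains was 0.37, that of A375 0.07 and that of SKMEL-5 0.73. In A2058 15 chains had both hypoxic libraries above both normoxic ones (20.5% of genes) and 6 below (18.6%). In A375 these were 4 (18.1%) and 5 (14.2%), and in SKMEL-5 16 (18.5%) and 2 (19.7%).

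The test of whether the response differed between the lines called 0 chains and 0 genes, with 2 chains and 1.6% of genes at an unadjusted p under 0.05, so that the differences of sign between lines are given as values. COL16A1 was at 62.9 and 44.5 CPM in A2058 normoxia and 23 and 20 CPM in A2058 hypoxia, and in SKMEL-5 at 67.3 and 44.1 against 210 and 59.2 CPM. COL27A1, a fibrillar chain of cartilage, was at 87.2 and 80.1 against 30.0 and 40.8 CPM in A2058 and at 83.1 and 60.0 against 115 and 82.5 CPM in SKMEL-5. COL24A1, its relative, was at 1.31 and 1.51 against 0.253 and 0.374 CPM in A2058. COL14A1 and COL15A1 in A2058 had the opposite order, with COL15A1 at 10.1 and 11.2 against 15.7 and 50.7 CPM.

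The hypoxic libraries that stood apart differed from the other hypoxic library of their line in the collagens as well. Compared at CPM plus 0.1, COL11A2 was at least 2-fold higher in all 3 (3.14% of tested genes were), and COL2A1, COL8A1 and COL12A1 at least 2-fold lower (4.2% of tested genes were). COL2A1 was near the floor there, with 1 count in A375 hypoxia 1 against 16 in A375 hypoxia 2. COL6A3 was lower by 3.58 and 3.63 on the log2 scale in A375 and SKMEL-5, and by 0.30 in A2058. COL16A1 was higher by 2.29 and 1.82 in A375 and SKMEL-5 and lower by 0.21 in A2058. Without the 3 libraries the mean hypoxia change of COL11A2 went from 0.51 to −0.59 and that of COL16A1 from 0.16 to −0.74, while COL6A3 went from 1.48 to 2.09.

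**Figure D5:**
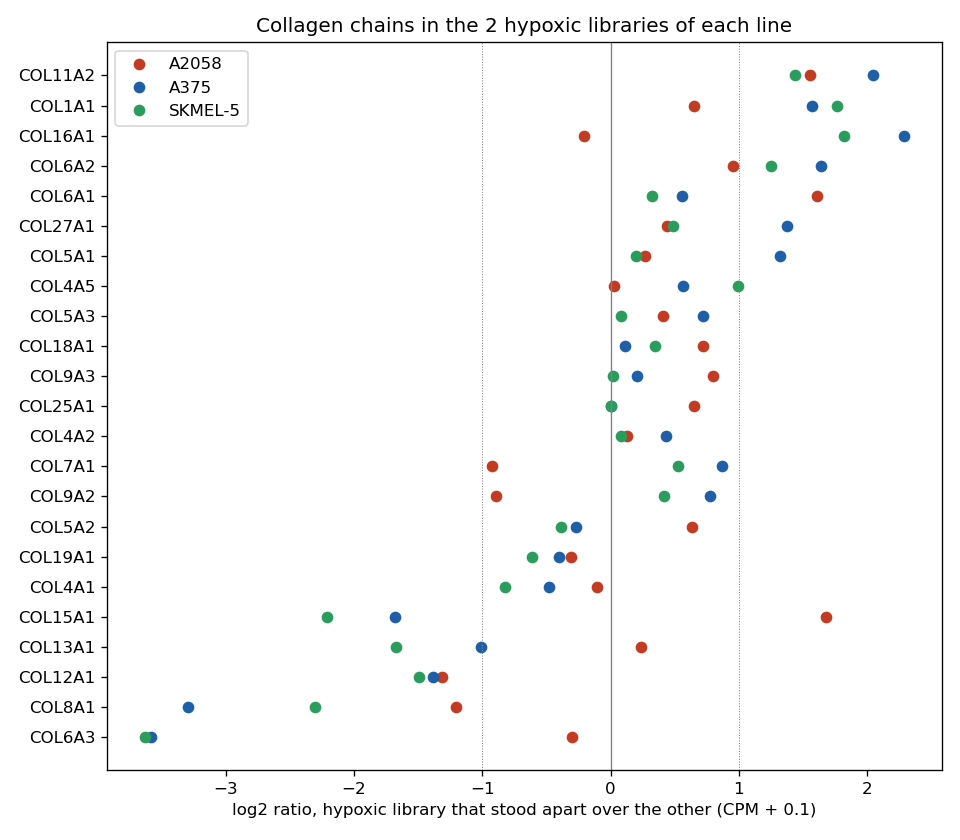
Log2 ratio of the hypoxic library that stood apart to the other hypoxic library of the same line, at CPM plus 0.1, for the 23 collagen chains that average at least 2 CPM; colours are lines and dotted lines mark 2-fold. COL11A2 lies right of the upper mark and COL12A1 and COL8A1 left of the lower one in all 3 lines, and COL6A3 is beyond 3 log2 units lower in A375 and SKMEL-5.

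The machinery that folds, cuts, binds and degrades collagens was read in the same test. Of 21 genes for folding and modification in the endoplasmic reticulum, 3 rose in the mean of the 3 lines, where 0.978% of tested genes were called higher. None of the 21 fell, where 0.143% of tested genes were called lower. Their median was 0.36. P4HA1, a catalytic subunit of prolyl 4-hydroxylase, rose by 2.67 ± 0.37 (log2 ± SE, adjusted p = 0.011), from 38.2 to 93.7 CPM across the normoxic libraries to 168 to 604 CPM across the hypoxic ones. P4HA2, its sister subunit, rose by 2.32 ± 0.25 (adjusted p = 0.0046) and PLOD1, a lysyl hydroxylase, by 1.94 ± 0.25 (adjusted p = 0.00882). For P4HA1, P4HA2 and PLOD1 every hypoxic library lay above every normoxic one of the same line. SERPINH1, the collagen chaperone HSP47, was at 0.01 ± 0.31.

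Of 14 genes for propeptide cleavage and crosslinking, 11 were tested and 1 rose: LOXL2, a lysyl oxidase that crosslinks collagen IV, by 2.60 ± 0.47 (adjusted p = 0.0283). It was at 24.2 and 86.9 CPM in A2058 normoxia and 504 and 1285 CPM in A2058 hypoxia, at 93.4 and 212 against 482 and 401 CPM in A375, and at 35.4 and 156 against 387 and 521 CPM in SKMEL-5. Of 11 receptor and uptake genes, 9 were tested and 1 rose, the collagen uptake receptor MRC2, by 1.22 ± 0.24 (adjusted p = 0.0383). Of 12 genes of degradation and its inhibitors 1 rose, the gelatinase MMP2, by 1.34 ± 0.26 (adjusted p = 0.0394). No gene of these lists fell. The shares of all tested genes beside these counts are again 0.978% called higher and 0.143% called lower. The medians of the 3 lists were 0.44, 0.73 and 0.37, against 0.02 over all genes.

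Fewer genes of these lists were called in the 9 libraries left without those that stood apart, a smaller test. It leaves 1 hypoxic library in each line, so only sizes of change are given. P4HA1 and P4HA2 were at 1.82 and 2.06, PLOD1 at 1.58 and PLOD2, another lysyl hydroxylase, at 1.70. LOXL2 was at 2.31, MRC2 at 0.83 and MMP2 at 0.92. With 1 library left out at a time, the number of calls moved in each of the 4 lists.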

How the data were processed

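RNA of 12 libraries was sequenced and counted by the submitters. Per the labels' protocols, RNeasy columns gave the RNA and the NuGen Universal Plus mRNA kit the libraries; GRCh38, STAR 2.5.0a, bcl2fastq 2.20 and Trim Galore 0.6.1 come from the submitters' processing notes. Counting tool, strand setting and annotation release: not given in the sources used here. The authors deposited raw counts per gene, whole numbers with no normalization, in 1 table of 60656 Ensembl IDs whose columns carry the sample titles. Symbols matched 60445 IDs with the version ignored; gene types, exon lengths and positions came from GENCODE 29 on GRCh38. How reads of overlapping or antisense genes were split is thus unknown: COL18A1 shares 1401 exon bases with SLC19A1, COL19A1 70 with LMBRD1 and COL9A3 45 with TCFL5, on opposite strands.

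The tests used edgeR 4.0.16 in R 4.3.3: filterByExpr (minimum count 10, minimum total count 15) left 19636 genes, scaled by TMM. A quasi-likelihood model with 1 mean for each of the 6 groups was fitted to the 12 libraries (6 residual and 5.02 prior degrees of freedom, biological coefficient of variation 0.453). Adjusted p-values are Benjamini-Hochberg values over all tested genes, called under 0.05, and are edgeR's where no other tool is given. A standard error is the size of the log2 change over the square root of its F. p-values measure the spread between the 2 libraries of a group, which the design text calls biological duplicates. CPM values of chains are TMM-scaled. Ratios of chains near the floor are ratios of summed counts with exact 95% intervals, which cover counting error only.

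The collagen rule, the chain classes, the lists of folding, crosslinking, receptor, degradation and marker genes, the 3 libraries left out together and the tests were chosen with earlier results of these data known. By the rule for named genes, a hypoxia fold change was given for the chains averaging at least 2 CPM and a line difference for each called chain (a ratio of counts where it passed the filter through 1 side); library values are given for the 5 chains highest in CPM in each line, and for further chains chosen after their values were seen. From each list up to 3 called members were named; SERPINH1, PLOD2, LUM, PDGFRB, FAP, DPT and MFAP5 were chosen after their values were seen. Alternatives were DESeq2 1.42.0 and its size factors in edgeR, limma 3.58.1's voom, no filter, 1 CPM in 2 libraries, a replicate block, leaving out libraries and averaging fewer lines; principal-transcript lengths were added after seeing the data. The procedure was tested on simulated counts.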

Additional observations from a re-analysis of the deposited data

How the results depend on the processing

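With 2 libraries a group, a change of 1 library could move a call. The number of chains called higher in hypoxia in the mean of the 3 lines was 0 by edgeR (0.978% of genes). It was 4 by DESeq2 (5.65%) and 1 by limma-voom (0.779%). With no low-count filter it was 7 (3.65%): COL1A1, COL4A2, COL5A1, COL6A2, COL6A3, COL8A2 and COL13A1. The number also moved with 1 library left out. With no filter, edgeR also called 5 chains higher and 1 lower in A2058 (0.81% and 0.251% of genes), 2 higher in SKMEL-5 (0.832%), 1 for a difference between lines (0.222%) and 1 between A375 and SKMEL-5 (0.155%); DESeq2 called 1 lower in A2058 (0.631%). The number lower in A2058 than in the others was 5 to 11 with 1 library left out (11.3% to 16.6% of genes) and 6 without the 3 libraries that stood apart. The cause was not tested. The chains made stayed within 1.5 times at 0.5 CPM (29, 26 and 25 in A2058, A375 and SKMEL-5) and at 2 CPM (25, 20 and 18).

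Small mean hypoxia changes turned direction, each without passing. Without the 3 libraries that stood apart COL11A2 was −0.59, COL16A1 −0.74, COL6A1 −0.30 and COL8A1 0.65. By limma-voom COL16A1 was −0.045, COL8A1 0.054 and COL9A2 0.16. Averaged over A2058 and A375 alone, COL12A1 was −0.038, COL16A1 −0.39, COL6A1 −0.029, COL8A1 0.15 and COL9A3 −0.014. Over A2058 and SKMEL-5 alone, COL16A1 was −0.024, COL19A1 −0.017, COL8A1 0.43 and COL9A2 0.093. With 1 library left out, COL12A1 ran from −0.24 to 0.98, COL15A1 from −0.16 to 0.69, COL16A1 from −0.35 to 0.40, COL19A1 from −0.10 to 0.36, COL6A1 from −0.10 to 0.41, COL8A1 from −0.92 to 0.98 and COL9A2 from −0.25 to 0.51.

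Deviations of same-numbered normoxic and hypoxic libraries correlated at −0.30, 0.23 and 0.26 in A2058, A375 and SKMEL-5, so the replicate numbers were not taken as pairs throughout. With the replicate block, 0 chains were called in hypoxia, where 0.463% of genes were called in the mean of the 3 lines. In A2058 12 chains were higher than in the others (16.4% of genes) and 9 lower (14.8%). The mean hypoxia change of COL16A1 was −0.047 and that of COL9A2 0.17.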

Other observations

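Some chains differed between the libraries numbered 1 and 2 of A375 and SKMEL-5 in normoxia as well as in hypoxia. At CPM plus 0.1, COL11A2 and COL22A1 were at least 2-fold higher in replicate 1 than in replicate 2 in all 4 groups of these lines (1.22% of tested genes were), and COL8A1 was at least 2-fold lower (0.453% of tested genes were). COL22A1 was at 4.47 and 0.166 CPM in A375 normoxia, 1.47 and 0.182 CPM in A375 hypoxia, 3.63 and 0.243 CPM in SKMEL-5 normoxia and 2.07 and 0.0898 CPM in SKMEL-5 hypoxia. COL11A2 was at 26.7 and 9.31, 34.9 and 8.38, 13.2 and 4.07, and 30.4 and 11.2 CPM in the same groups. These chains were chosen after their values were seen, and what the numbers stand for is not given in the labels.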
